A study of Mus musculus with 4 samples.

Results

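The 81 genes described here encode collagens, laminins and integrins, the matrix proteins that surround cells and the receptors that hold cells to them. They are all autosomal protein-coding genes in a RefSeq table of GRCm38.p6 whose symbols follow the naming pattern of these families, 42 collagen, 11 laminin and 28 integrin genes of 20661 autosomal protein-coding genes in all. Chromosome X was not used. Itgb3bp met the naming pattern but encodes a centromere protein and no integrin chain, and the integrin count is 27 without it. ChIP-seq mapped the binding of Tfcp2l1, a CP2 family transcription factor, in mouse embryonic stem cells of wild-type genotype. The medium held 1000 units/mL of LIF, the GSK3 inhibitor CHIR99021 at 3 µM and the MEK inhibitor PD0325901 at 1 µM. All libraries shared this genotype and medium, and there was no other condition. There were 2 repeats, each of 1 ChIP library, made with a custom antibody, and 1 input library of sheared chromatin.

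Collagen chains assemble into helical trimers that form fibrils, networks and other structures. Laminins are trimers of an alpha, a beta and a gamma chain and form the first network of a basement membrane, with collagen IV in a second sheet. Integrins pair an alpha with a beta chain at the cell surface, and the pair decides whether the receptor binds laminin, collagen or the RGD sequence of proteins such as fibronectin. In mouse embryonic stem cells the best known laminin receptor pairs the Itga6 and Itgb1 products.

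The authors called peaks separately in each repeat, 57614 in repeat 1 and 51610 in repeat 2, from 19353473 and 22555373 filtered ChIP tags. A peak of repeat 1 that overlapped a peak of repeat 2 by at least 1 bp is called shared, and there were 43851. A peak belongs to a gene if its summit lies inside the gene or within 10 kb of its ends, here called the window. Fold enrichment is the authors' value for each peak, a ratio of ChIP tags to local background taken at its summit, and tags are ChIP tags in the peak. Pairs of values are repeat 1 and then repeat 2, and peak positions are those of repeat 1 in GRCm38. Nothing in the labels says that the repeats came from separate cultures. Expression was not measured, so the identity of the cells could not be checked against markers.

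Promoter sequence is shown for the 5 members at which the summits of a shared peak lay within 117 bp of an annotated start in both repeats, the position where binding and gene can be placed most closely. The bases come from RefSeq (GRCm38.p6), run 5′ to 3′ in the direction of transcription and end at the outer bound of the gene in the table, which lies 45 bases before the annotated start at Lama5 and 50 bases before it at Col5a3. Capitals mark, on either strand, each pair of the letters CCNG separated by 6 bases of any kind, a loose form of the paired elements that CP2 factors are known to bind. N is any base, on the other strand the letters read CNGG, and overlapping matches run together.
Itgb5, chr16:33829415-33829664, plus strand: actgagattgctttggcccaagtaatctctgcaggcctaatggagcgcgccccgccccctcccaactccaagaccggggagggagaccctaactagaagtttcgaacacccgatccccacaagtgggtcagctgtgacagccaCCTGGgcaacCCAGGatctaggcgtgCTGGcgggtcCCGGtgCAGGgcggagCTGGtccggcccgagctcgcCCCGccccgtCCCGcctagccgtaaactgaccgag
Col5a3, chr9:20815118-20815317, minus strand: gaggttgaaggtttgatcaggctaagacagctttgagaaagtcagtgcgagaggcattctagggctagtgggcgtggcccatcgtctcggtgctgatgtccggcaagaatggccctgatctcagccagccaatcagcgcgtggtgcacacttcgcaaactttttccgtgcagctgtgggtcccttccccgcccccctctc
Itga5, chr15:103366792-103367041, minus strand: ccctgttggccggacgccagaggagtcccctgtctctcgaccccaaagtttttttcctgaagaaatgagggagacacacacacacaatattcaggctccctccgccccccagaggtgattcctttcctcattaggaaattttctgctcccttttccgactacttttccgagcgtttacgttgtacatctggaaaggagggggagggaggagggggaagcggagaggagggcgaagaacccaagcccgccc
Lama5, chr2:180225905-180226109, minus strand: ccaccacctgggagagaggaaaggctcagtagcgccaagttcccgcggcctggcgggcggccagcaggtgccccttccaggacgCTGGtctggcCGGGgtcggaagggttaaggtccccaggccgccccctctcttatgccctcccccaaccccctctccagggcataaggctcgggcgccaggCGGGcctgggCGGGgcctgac
Col9a2, chr4:121039316-121039565, plus strand: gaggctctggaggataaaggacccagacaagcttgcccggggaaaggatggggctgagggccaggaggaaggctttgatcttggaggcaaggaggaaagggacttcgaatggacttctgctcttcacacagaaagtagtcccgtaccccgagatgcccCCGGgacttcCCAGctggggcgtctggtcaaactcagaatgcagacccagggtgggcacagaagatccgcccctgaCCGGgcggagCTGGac

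The Itgb5 stretch held 5 matches, those of Lama5 and Col9a2 held 2 each, and those of Itga5 and Col5a3 held none. From 250 bases before to 50 after the start, Itga5 and Col5a3 held 2 matches each, not wholly within the bases shown. These letters are common. They stood in 34.9% of 20084 promoters of autosomal protein-coding genes, counted over the whole 300 bases of the table (250 before and 50 after each start). They stood in 48.9% of promoters with a shared summit within 1 kb of the start and in 29.7% of those without one. Among the members, 58 genes had 64 promoters in the table, of which 21 held the letters (32.8%). They stood in 9 of the 16 member promoters with a shared summit within 1 kb and in 12 of the 48 without one. The stricter pair of CCAG with the same spacing, which the loose form includes, stood in 4 of the 64 (6.25%), against 3.52% of all promoters, and the 4 were promoters of Itga5, Col18a1, Lamb3 and Col9a1. A match is a run of letters and not a shown binding site.

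The share of genes with a shared peak was highest at laminins and lowest at collagens. All 11 laminin genes had at least 1 (95% interval 71.5% to 100%), as did 22 of 28 integrin genes (78.6%, 59.05% to 91.7%) and 27 of 42 collagen genes (64.3%, 48.0% to 78.4%), against 66.9% of all autosomal protein-coding genes. Over the families together it was 60 of 81 (74.1%). Intervals are exact binomial (Clopper-Pearson) ones, cover counting error only, and overlap between the families. The genes of a family are not replicates, so the differences between families are given as counts without a test. With repeat 1 alone, 32 collagen, 11 laminin and 23 integrin genes had a peak, against 73.7% of all genes. With repeat 2 alone it was 31, 11 and 23, against 70.5%.

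**Figure D1:**
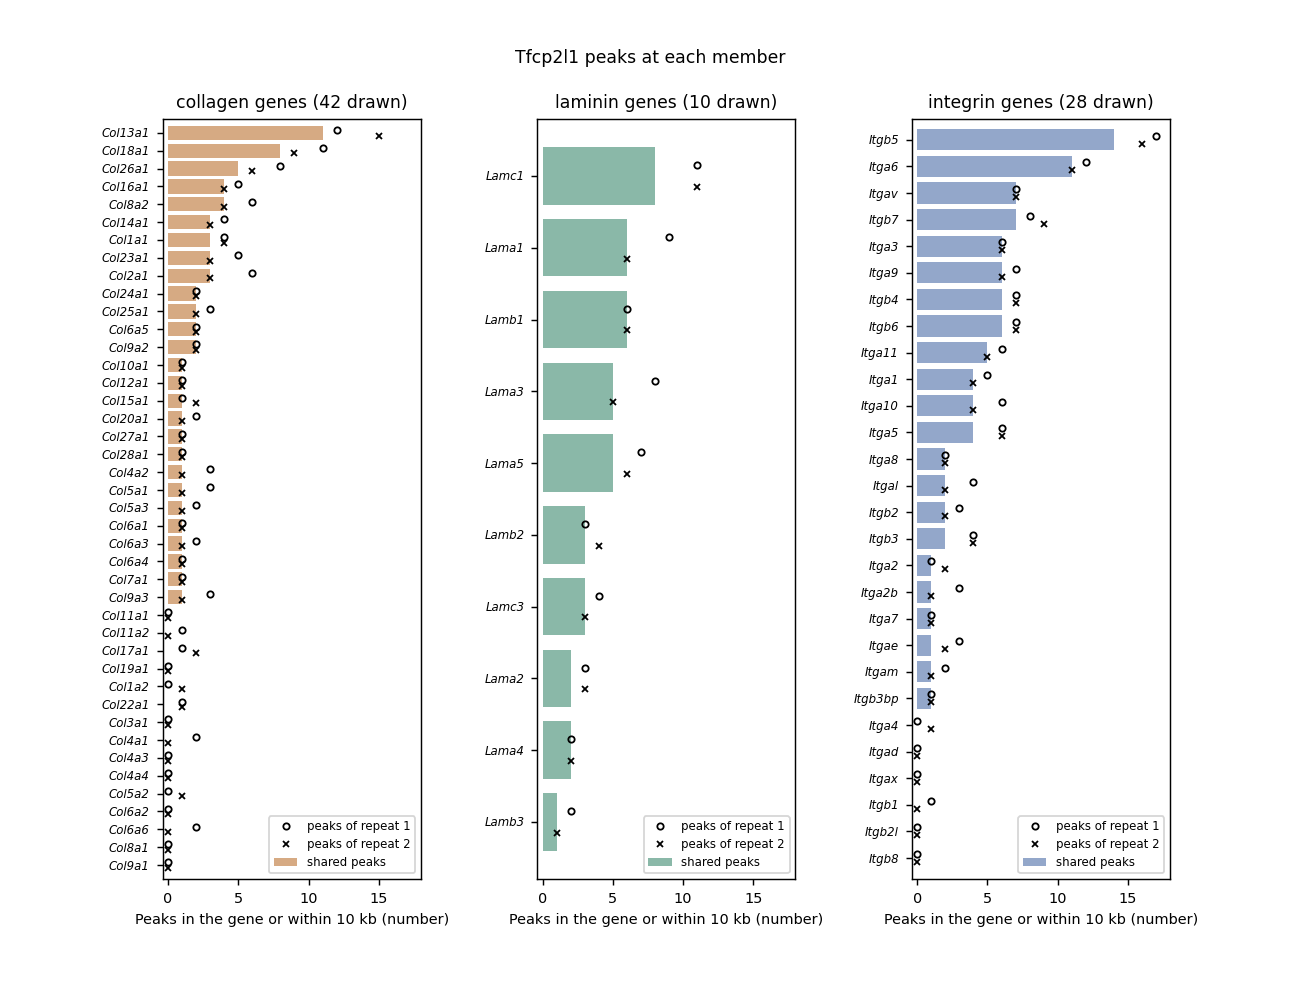
Number of Tfcp2l1 peaks in each gene or within 10 kb of it (horizontal axis), by family, with 1 row per gene. Bars are shared peaks, open circles peaks of repeat 1 and crosses peaks of repeat 2. All 10 laminin genes drawn have a bar, while 15 collagen and 6 integrin genes have none, and Itgb5 has the longest with 14.

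Long genes have more room for peaks, and the collagen genes were long, with a median window of 130 kb, against 84.5 kb for laminins, 76.4 kb for integrins and 37.5 kb for all genes. Per 100 kb of window there were 1.15 shared peaks at collagens, 2.85 at laminins and 3.68 at integrins, against 2.94 over all genes. The medians over genes were 0.712, 4.12 and 2.43 per 100 kb, against 2.67. So collagen genes had about the same share of genes with a peak as all genes in spite of windows that were several times longer. Among windows of 100 to 200 kb, 10 of 16 collagen genes had a shared peak, as did 3 of 3 laminin and 6 of 6 integrin genes, against 84.1% of all genes in that range. Among windows over 200 kb it was 5 of 8, 2 of 2 and 2 of 2, against 87.2%. Among windows of 50 to 100 kb it was 5 of 9, 5 of 5 and 9 of 13, against 78.2%. Collagens lay above the share of all genes only in windows of up to 50 kb, with 7 of 9, beside 1 of 1 laminin and 5 of 7 integrin genes, against 59.3%.

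**Figure D2:**
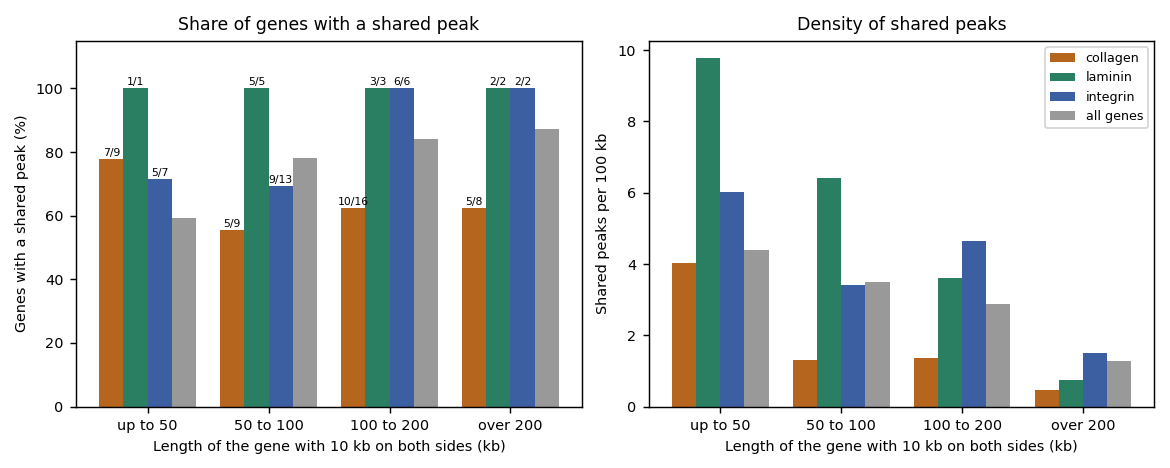
Left, the percentage of genes with a shared peak, and right, shared peaks per 100 kb of window, for genes grouped by the length of their window in kb. Brown is collagen, green laminin, blue integrin and grey all autosomal protein-coding genes, and figures over the bars are genes with a shared peak of genes in the group. Over 50 kb the collagen bars are the lowest of each group in both plots, with 1.30, 1.36 and 0.455 peaks per 100 kb against 3.51, 2.86 and 1.28 over all genes.

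The peaks of the families had similar median strength. The windows held 66 shared peaks at collagens, 51 at laminins and 94 at integrins, 211 in all, and no peak lay in the windows of 2 members. Median fold enrichment was 15.9 and 12.1 at collagens, 14.01 and 12.6 at laminins, and 15.8 and 12.2 at integrins, against 15.5 and 11.8 over the 43258 shared peaks on autosomes. Median tags were 56.5 and 57 at collagens, 60 and 56 at laminins, and 58 and 58.5 at integrins, against 58 and 57. Summits of the 2 repeats lay a median of 30, 26 and 26.5 bp apart, against 28 bp. Median strength was thus close between the families, while the number of peaks per 100 kb was not.

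**Figure D3:**
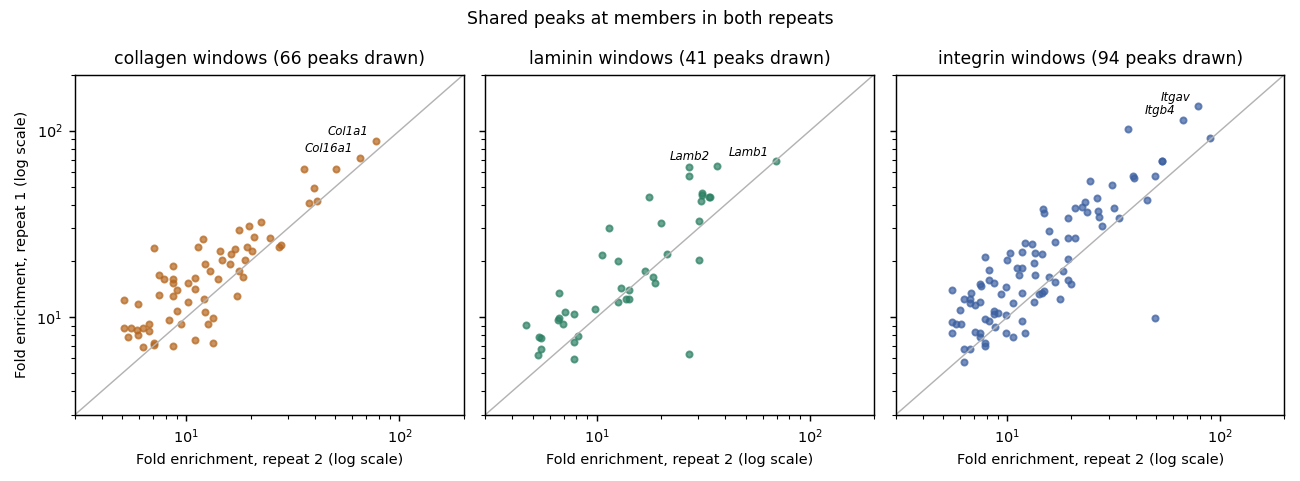
Fold enrichment of each shared peak at collagen, laminin and integrin genes in repeat 2 (horizontal, log scale) and repeat 1 (vertical, log scale), with the line of equal values and the 2 highest peaks of repeat 1 named by gene in each plot. Points rise along the line in all 3 families, and the highest are at Itgav (135-fold and 78.5-fold) and Itgb4. Peaks of 1 laminin gene are not drawn. The points far to the right at laminins and integrins are weaker peaks of repeat 1, in the windows of Lama5 and Itga6, that overlap a peak of repeat 2 with higher enrichment.

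Across these peaks Spearman's rho of fold enrichment between the repeats was 0.799 at collagens, 0.826 at laminins and 0.803 at integrins, against 0.80 over all autosomal shared peaks, and on the log2 scale Pearson's r came to 0.86, 0.843 and 0.848, against 0.849. These describe regions of the same libraries and carry no p. Of the peaks of repeat 1 in collagen windows, 66 of 100 were found again in repeat 2, against 76.4% over all autosomes. At laminins it was 51 of 66 (77.3%) and at integrins 94 of 119 (79.0%). Of the peaks of repeat 2, 68 of 79 at collagens (86.1%), 50 of 58 at laminins (86.2%) and 96 of 107 at integrins (89.7%) overlapped a peak of repeat 1, against 84.9%.

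A strong peak is one in the strongest 10% of both lists, which began at 43.4-fold (repeat 1) and 32.2-fold (repeat 2). Such a peak was found at 5 of 42 collagen, 4 of 11 laminin and 5 of 28 integrin genes, against 16.0% of all genes. Genes with 5 or more shared peaks numbered 3 of 42, 6 of 11 and 9 of 28, against 11.6%. Neither count was matched by window length, and median windows were 130, 84.5 and 76.4 kb against 37.5 kb over all genes. Among the 6 laminin genes, Lama5 had 5 shared peaks only with 2 that overlapped the same peak of repeat 2. A shared summit within 1 kb of either gene end was found at 7 of 42, 4 of 11 and 12 of 28, against 30.1%. Of the peaks in the windows, 71.2% at collagens, 70.6% at laminins and 70.2% at integrins lay inside the gene, against 59.8% over the windows of all genes, which are shorter and so hold more flank.

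Among the collagens, the fibril-forming chains had shared peaks at 6 of 11 genes (54.5%), against 66.9% of all genes, and 11 shared peaks in all, or 0.869 per 100 kb. Col1a1, which encodes the main chain of type I collagen of bone and skin, had the strongest peak of the family, on chromosome 11 at 94957438 to 94959122, with 88.2-fold and 77.3-fold enrichment from 413 and 351 tags. It lay 5.48 kb outside Col1a1 and 4.26 kb from Sgca, a sarcoglycan gene. None of the 3 shared peaks of Col1a1 lay inside it. Its partner gene Col1a2 had no shared peak and a single peak of repeat 2 (5.89-fold, 29 tags), 9.29 kb outside the gene. Col3a1, the gene of type III collagen of vessels and skin, had no peak in either repeat, and the nearest shared peak was 419 kb away. The pair that forms type I collagen thus had unlike windows, and the peak at Col1a1 was nearer to another gene.

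Col5a1, a chain of type V collagen that helps to set fibril width, had 1 shared peak, which was strong. It lay inside the gene, 107 kb from its lower-coordinate end, with 49.3-fold and 39.6-fold enrichment from 149 and 156 tags. Col5a3, of the same type, had its shared peak at its start (20.3-fold and 18.9-fold, 125 and 112 tags). Col5a2 had 1 peak of repeat 2 (5.89-fold). Col2a1, the main cartilage collagen gene, had 3 shared peaks, the strongest of only 9.18-fold and 6.67-fold, and Col24a1 and Col27a1 had 2 and 1. Of the remaining fibril-forming genes, Col11a1 had no peak and Col11a2 had 1 peak of repeat 1 (6.67-fold).

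Network-forming collagens had the lowest share of genes and the lowest density of the collagen groups. A shared peak was found at 3 of 7 genes (42.9%), against 66.9% of all genes, with 6 shared peaks or 0.723 per 100 kb. Type IV collagen is the sheet-forming collagen of basement membranes, and its autosomal genes lie in head-to-head pairs. Col4a1 had 2 peaks of repeat 1 inside the gene (13.0-fold with 37 tags, and 8.21-fold with 22 tags) and none of repeat 2. Its neighbour Col4a2 had 1 shared peak (9.13-fold and 12.6-fold, 49 and 75 tags), 5.50 kb outside its end and inside Rab20. Col4a3 and Col4a4 had no peak of either repeat, nor had Col8a1. The type IV genes, with windows of 134 to 159 kb, thus held no shared peak inside any of the 4 genes. Col8a2, which encodes a collagen of the corneal Descemet membrane, had 4 shared peaks, the strongest with 23.2-fold and 16.9-fold enrichment and nearer to Adprhl2, and Col10a1 of hypertrophic cartilage had 1, which lay inside Nt5dc1.

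Transmembrane collagens and multiplexins had more peaks per 100 kb (1.63 and 3.46) than the fibril-forming and network-forming groups. The median over the transmembrane genes was only 0.705 per 100 kb, as most of their peaks lay at Col13a1. The transmembrane collagens had shared peaks at 3 of 4 genes, against 66.9% of all genes. They had 16 in all, of which 11 were at Col13a1, a collagen of cell adhesion sites and the nerve-muscle junction. Those of Col13a1 ran up to 40.9-fold and 37.7-fold (196 and 159 tags), and 8 lay inside the gene. Col23a1 and Col25a1 had 3 and 2, and Col17a1, a hemidesmosome collagen, had 1 peak of repeat 1 and 2 of repeat 2 without overlap. Both multiplexins had a shared peak, against the same 66.9%. Col18a1, a basement membrane collagen and source of the fragment endostatin, had 8, all inside the gene and the strongest with 61.95-fold and 35.7-fold enrichment (322 and 242 tags), while Col15a1 had 1 (16.9-fold and 7.46-fold).

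The FACIT collagens, which sit on the surface of fibrils, had shared peaks at 6 of 9 genes (66.7%), near the 66.9% of all genes. Col16a1 had the strongest (71.5-fold and 65.5-fold, 305 and 349 tags), 8.69 kb outside the gene and inside Pef1. Col9a2 had 2, one of them 83 bp past its start (23.8-fold and 19.2-fold, 87 and 79 tags), and Col14a1 had 3 (16.4-fold and 18.4-fold in the leading one). Col9a3, Col12a1 and Col20a1 had 1 each, while Col9a1 and Col19a1 had no peak and Col22a1 had 1 unshared peak in each repeat. Of the beaded-filament chains, 4 of 6 had a shared peak (66.7%), also near the share of all genes. Col6a3 had the strongest at 23.7-fold and 27.1-fold, the others were Col6a1, Col6a4 and Col6a5, and Col6a2 had no peak. Col6a6 had 2 peaks of repeat 1 alone. Col26a1 had 5 shared peaks, all inside it and the strongest with 61.95-fold and 50.2-fold enrichment, and Col28a1 and Col7a1 had 1 each. In all, 14 of the 27 collagen genes with a shared peak had exactly 1, against 4540 of 13828 over all autosomal protein-coding genes.

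Laminin genes had a median of 5 shared peaks, against 1 over all genes, in windows with a median of 84.5 kb against 37.5 kb. In windows of 50 to 100 kb the medians were 5 and 2, and in those of 100 to 200 kb 6 and 3. In windows over 200 kb they were 3.5 and 3. Pooled density was 2.85 per 100 kb at laminins and 2.94 over all genes. Lamc1, the gamma chain of most laminins, had 8 shared peaks. The strongest peak of Lamc1 lay inside it (63.8-fold and 27.1-fold, 181 and 102 tags), and 2 of its 8 overlapped the same peak of repeat 2. At Lamc1 a pair of peaks 2.10 kb and 5.01 kb outside the lower-coordinate end was strong in both lists (43.99-fold and 33.4-fold, 43.96-fold and 34.1-fold). Lamc3, another gamma chain gene, had 3, none above 14.3-fold.

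Among the beta chains, Lamb1, the partner of Lama1 and Lamc1 in the laminin of the early embryo, had 6 shared peaks, of which 2 weak ones overlapped the same peak of repeat 2. The strongest lay 28.7 kb inside the gene and was nearly equal in the repeats (68.8-fold and 69.5-fold, 306 and 289 tags). A weaker peak lay 466 bp past its start (10.6-fold and 7.06-fold). Lamb2, the beta chain of the neuromuscular and kidney laminins, had 3. Its strongest (65.0-fold and 36.5-fold, 200 and 145 tags) lay 9.67 kb upstream and nearer to Ccdc71, and the peak inside the gene had 7.82-fold and 5.36-fold. Lamb3 had 1 shared peak (12.6-fold and 14.1-fold), the fewest of the laminins.

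Alpha chain genes had 20 shared peaks in all but none in the strongest 10% of both lists. Lama1, the alpha chain of the laminin of the early embryo, had 6, the strongest 1.47 kb from its lower-coordinate end (45.4-fold and 31.0-fold, 127 and 128 tags). Lama5, a widely made basement membrane chain, had 5. At its start a peak of 57.2-fold and 27.1-fold (270 and 203 tags) had its summits 107 and 92 bp before the annotated start, on the stretch shown. The same peak of repeat 2 also overlapped a weaker neighbour in repeat 1 (6.35-fold). Lama3, on chromosome 18, had 5 shared peaks, all inside the gene, the best ranked with 41.9-fold and 30.9-fold and another with 43.8-fold and 17.5-fold. Lama2 and Lama4, of muscle and vessels, had 2 each, and Lama2, the longest gene of the laminins at 636 kb, had the lowest density, 0.305 per 100 kb. The alpha chains thus had 1.53 shared peaks per 100 kb, against 2.94 over all genes, and the beta chains had 5.41. Lama2 weighs on the alpha chain value, with 2 of the 20 peaks in a window of 656 kb. Over all genes with windows over 200 kb, density was 1.28 per 100 kb.

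**Figure D4:**
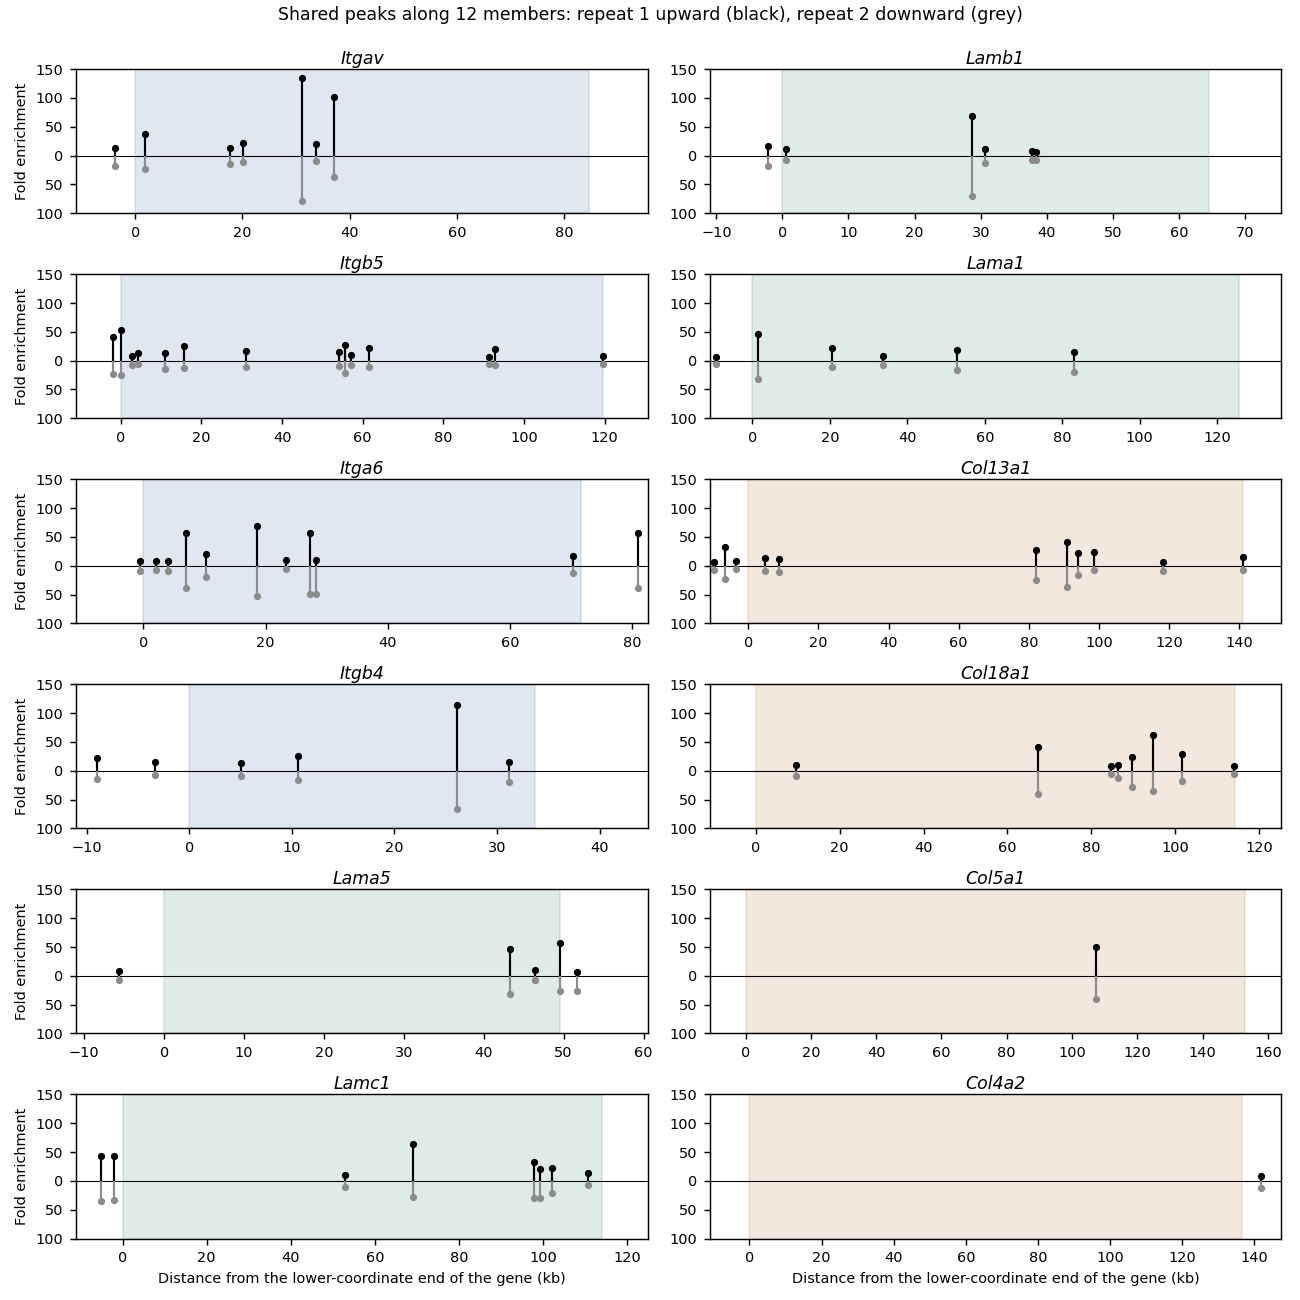
Shared peaks along 12 members, with distance in kb from the lower-coordinate end of the gene on the horizontal axis, the gene shaded, and fold enrichment drawn upward in black for repeat 1 and downward in grey for repeat 2. Peaks up to 10 kb beyond the gene are drawn. The integrin and laminin genes drawn have several peaks each, and so do the collagen genes Col13a1 (11) and Col18a1 (8). Col5a1 has 1, and Col4a2 has its peak beyond the gene.

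Among integrin alpha chains, 15 of 18 genes had a shared peak (83.3%), against 66.9% of all genes. Their median window was 76.4 kb, and of all genes with windows of 50 to 100 kb, 78.2% had a shared peak. The chains whose receptors bind laminin all had one, with 18 shared peaks over Itga3, Itga6 and Itga7 or 9.54 per 100 kb. Itga6 had 11, of which 9 lay inside the gene and 4 were strong, and 2 overlapped the same peak of repeat 2. The strongest were at 71804736 to 71807026 on chromosome 2 (69.2-fold and 53.1-fold, 341 and 314 tags) and 71813527 to 71814721 (57.2-fold and 49.5-fold, 179 and 277 tags). A peak 9.37 kb beyond its end and nearer to Pdk1 had 56.0-fold and 39.2-fold. Itga3, a partner of Itgb1 in epithelia, had 6 peaks that were all modest, the strongest 15.5-fold and 16.8-fold. The muscle chain gene Itga7 had 1, at 9.87 kb outside the gene just within the window and 0.023 kb from Bloc1s1 (38.7-fold and 22.4-fold). So Itga6 and Itga3 were alike in number of peaks per 100 kb (12.02 and 11.5) and unlike in their strength.

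All 4 RGD-binding alpha chain genes had shared peaks, against 66.9% of all genes. Itgav, the alpha chain of several vitronectin and fibronectin receptors, carried the strongest peak of all members by rank over both lists, inside the gene (chromosome 2, 83752694 to 83753913), with 135-fold and 78.5-fold enrichment from 474 and 387 tags. It ranked in the top 0.33% of repeat 1 and 0.853% of repeat 2. A second strong peak lay at 83758791 to 83760082 (101-fold and 36.8-fold, 298 and 243 tags), and 5 more brought its number to 7. Itga5, the alpha chain of the main fibronectin receptor, had 4, none inside the gene. The one at its start had its summits 72 and 117 bp before it (42.3-fold and 45.5-fold, 245 and 171 tags), and another lay 3.21 kb beyond the far end and nearer to Zfp385a (51.2-fold and 31.0-fold). Itga8 had 2 shared peaks of at most 14.01-fold, and the platelet chain gene Itga2b had 1 (7.83-fold and 10.7-fold).

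The 4 collagen-binding alpha chain genes had 14 shared peaks. Itga10, of cartilage, had the strongest (69.1-fold and 53.4-fold, 200 and 213 tags), inside the gene. Itga1 had 4 (up to 36.2-fold in repeat 1 and 33.4-fold in repeat 2), all inside it, and Itga11 had 5, none above 11.9-fold. Itga2, the platelet and epithelial collagen receptor chain, had 1 shared peak at its start (19.5-fold and 13.3-fold, 118 and 116 tags). Its summits were 117 bp before the start in repeat 1 and 875 bp past it in repeat 2, in peaks that overlapped.

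The leukocyte chains together with Itga4 and Itga9 had the fewest of the alpha chain groups. A shared peak was found at 4 of 7 genes (57.1%), against 66.9% of all genes. There were 10 shared peaks or 1.396 per 100 kb, and 6 of the 10 were at Itga9 (31.0-fold and 27.9-fold at most in its leading peak). Itgal had 2, and Itgam and Itgae had 1 each, at most 13.5-fold. Itgad and Itgax, which encode alpha chains of leukocyte beta2 integrins, had no peak of either repeat. Itga4, of lymphocyte homing, had a single peak of repeat 2 (5.49-fold, 33 tags).

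Beta chains had shared peaks at 6 of 9 genes (66.7%), near the 66.9% of all genes, and 5.16 per 100 kb, against 2.94 over all genes. Of their 37 shared peaks, 14 were at Itgb5 and 7 at Itgb7. The median over the beta chain genes was 3.61 per 100 kb, against 2.67 over all genes. Itgb1 encodes the beta chain that most alpha chains above pair with. It had no shared peak, and 1 peak of repeat 1 (8.21-fold, 28 tags) inside the gene, with the nearest shared peak 382 kb away. Itgb5, a partner of Itgav, had 14, the most of any member. Its leading peak lay on its start, with summits 9 and 17 bp past it (53.6-fold and 24.3-fold, 185 and 127 tags), and a second lay 1.78 kb upstream (41.6-fold and 23.2-fold). The other 12 of Itgb5 lay inside the gene. Itgb4, the partner of Itga6 in hemidesmosomes, had 6, the strongest of which lay within it (chromosome 11, 116000191 to 116001490). That peak had 114-fold and 66.7-fold enrichment from 452 and 338 tags.

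Itgb7, a leukocyte beta chain, had 7 shared peaks in a short window, or 18.7 per 100 kb of window, the highest density of the members, but 5 of the 7 lay inside its neighbours Zfp740 and Rarg. Its strongest (91.8-fold and 89.5-fold, 488 and 402 tags) had the highest enrichment of all members in repeat 2, and lay 4.94 kb outside the gene and inside Zfp740. The next ones (38.5-fold and 31.5-fold, 43.4-fold and 26.3-fold) lay inside Rarg, and 2 lay inside Itgb7. Itgb6, of epithelia, had 6 shared peaks with the strongest at 34.6-fold and 27.1-fold, and Itgb2 and Itgb3 had 2 each, led by peaks of 37.2-fold and 26.5-fold at Itgb2 and 33.8-fold and 19.2-fold at Itgb3. Itgb3bp, which is no integrin gene, had 1 (15.9-fold and 8.24-fold). Itgb8 and Itgb2l had no peak of either repeat. The genes of the pair Itga6 and Itgb1 thus had 11 and 0 shared peaks, and those of the pair Itgav and Itgb5 had 7 and 14.

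Genes without a shared peak numbered 15 of 42 collagens and 6 of 28 integrins, against 6833 of all 20661 genes. No peak of either repeat was found at 8 of 42 collagens, 0 of 11 laminins and 4 of 28 integrins, against 23.9% of all genes. The unshared peaks at the others ran from 4.71-fold at Col17a1 to 13.0-fold at Col4a1. The nearest shared peak lay a median of 76.2 kb from the gene for these collagens (range 10.7 to 419 kb) and 53.9 kb for the integrins (28.9 to 382 kb). Just outside the window were Col6a6 at 10.7 kb and Col11a2 at 11.8 kb, and just inside it was Itga7 at 9.87 kb. The window also takes in neighbours. At 4 of the 27 collagen genes with a shared peak (Col10a1, Col4a2, Col7a1 and Col9a3) every shared peak lay nearer to another protein-coding gene. The same held at 1 of the 22 integrin genes (Itga7). Of the peaks, 9 of 66 at collagens, 7 of 51 at laminins and 12 of 94 at integrins lay nearer to another gene. These counts are not given over all genes. When each peak counted only for its nearest gene, 23 of 42 collagen, 11 of 11 laminin and 21 of 28 integrin genes had one, against 57.4% of all genes.

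Annotated starts were available for 33 collagen, 5 laminin and 20 integrin genes. A shared summit lay within 1 kb of a start at 5 collagen, 2 laminin and 9 integrin genes, against 28.2% of all genes with an annotated start. Besides the 5 genes whose promoters are shown, the members closest to a start by the summit of repeat 1 were Col13a1 (98 bp), Itga2 (117 bp), Itgb7 (179 bp) and Col25a1 (181 bp). At Itgav a peak of 36.7-fold and 23.8-fold (148 and 133 tags) lay 336 bp before the annotated start, within the outer bounds of the gene in the table and well below the enrichment of its 2 strongest peaks. A stronger shared peak lay elsewhere in the window at Itgav, Lamb1, Itgb7 and Col18a1, while at Itgb5, Col9a2, Col25a1 and Itga2 the peak at the start was the strongest or the only one.

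**Figure D5:**
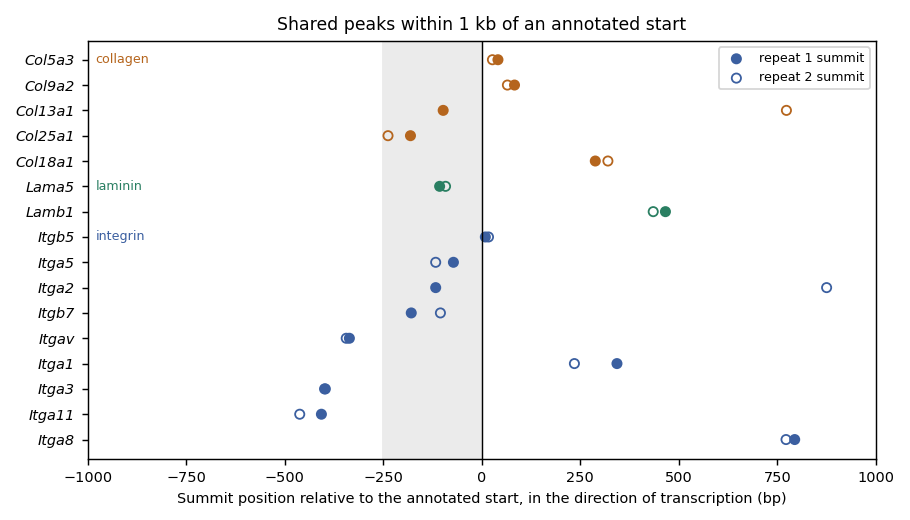
Position of the summits of repeat 1 (filled) and repeat 2 (open) relative to the annotated start, in bp along the direction of transcription, for the 16 members with a shared summit of repeat 1 within 1 kb of a start. Negative values lie before the start, and grey marks the 250 bases before it. The summits of Itgb5 lie at 9 and 17 bp, while those of Itga2 and Col13a1 differ between the repeats.

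Other genes of the matrix and its attachment were counted in the same way for comparison. All 10 genes of a basement membrane and matrix list had one (nidogens, Hspg2, Agrn, Fn1 and others), with 5.66 shared peaks per 100 kb. It was 13 of 15 genes of collagen processing, such as prolyl and lysyl hydroxylases and lysyl oxidases, with 4.73 per 100 kb, and 16 of 17 genes of focal adhesions, which link integrins to actin, with 4.98 per 100 kb. Over all autosomal genes the share was 66.9% and the density 2.94 per 100 kb. The lists were not matched to all genes by window length, and in windows of 50 to 100 kb the share of all genes was 78.2%. Strong peaks were found at 5 of 10, 2 of 15 and 10 of 17 genes of these lists, against 16.0%.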

How the data were processed

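Tfcp2l1 ChIP and input libraries of 2 repeats enter here as 2 peak lists, 1 per repeat. Per the file headers, the authors called peaks with MACS 1.4.1 at p = 1e-05, each ChIP library against the input of its repeat, with 35 bp tags, d of 200 bp and at most 2 duplicate tags per position. Lists were not pooled. The sources used here do not name an aligner, and the submitters' processing notes name CASAVA 1.8.2. The deposited tag count is a whole number of ChIP tags per peak. As a score the authors deposited -log10 of the MACS p-value times 10. The deposited fold enrichment is a ratio to local background. The deposited FDR is in percent, at most 0.11% and 0.12%. Filtered input tags numbered 18446758 and 23825930, per the file headers.

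The notes name mm9, but peaks on chromosome Y reach 90.8 Mb, beyond its end in mm9. Summits also gathered at GRCm38 starts, with 5533 shared summits within 1 kb and 936 at 9 to 10 kb, so GRCm38.p6 genes were used. Strand was taken from the promoter table, and promoters on chromosome 18 were not used here.

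Peaks were assigned by summit with Python 3.11.15, pandas 2.3.3 and numpy 2.4.6. Counting was tested on simulated data. Members and lists were chosen with earlier results of these data known. Named were the 6 members of each family whose strongest shared peak ranked best by fold enrichment averaged over the lists, the 3 with most shared peaks, fixed chains of laminins, of collagens I, III and IV and of integrins, and all members without a shared peak. Genes named otherwise, neighbours among them, were chosen after their values were seen. Length groups, the strongest 10%, counts of 5 or more peaks and distances to annotated starts were also added after seeing the data. Alternatives changed the definition of a shared peak, the thresholds, the window, the assignment and the repeats. Values of 1 laminin gene are not reported here singly, and counts over the family include it.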

Additional observations from a re-analysis of the deposited data

How the results depend on the processing

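The order of the families in the share of genes with a shared peak, laminins above integrins above collagens, held under all alternatives tried except near gene ends, where integrins led. Within 10 kb of an end it was 17 of 42 collagen, 8 of 11 laminin and 21 of 28 integrin genes, against 62.2% of all genes, and within 1 kb 7, 4 and 12, or 23 members in all, against 30.1%. Counts and densities of peaks moved with the window and the threshold. In the order collagen, laminin, integrin, a fold enrichment of 10 or more in each repeat left 36, 29 and 54 shared peaks (0.625, 1.62 and 2.12 per 100 kb). A score of at least 100 in both left 43, 32 and 66 (0.746, 1.79 and 2.59). Windows of 50 kb around the gene held 160, 85 and 200 (1.81, 3.45 and 4.24). Within 10 kb of gene ends there were 33, 24 and 56 (1.99, 5.57 and 5.03), and within 1 kb 7, 4 and 14 (4.16, 9.09 and 12.5). At laminins and integrins, density was 2.46 and 3.29 with summits within 100 bp, 2.29 and 3.31 in the gene body only, and 2.46 and 3.21 by nearest gene. With either repeat left out, collagens had 79 to 100 peaks (1.37 to 1.74 per 100 kb), laminins 58 to 66 (3.24 to 3.69) and integrins 107 to 119 (4.19 to 4.66). Without repeat 2, collagens rose past 1.5 times the shared count, at 100 peaks. Without Itgb3bp, 21 of 27 integrin genes had a shared peak, and placing peaks by the summit of repeat 2 gave 60 members in all, both alternatives chosen after seeing the data. Collagens had the lowest density under every alternative tried. Of 149 values under alternatives, 103 stayed within 1.5 times the count or within the spread between the repeats. The tally includes values that could not change, such as those of collagens and laminins without Itgb3bp. It also counts each alternative for several related results, so it is no measure of robustness. Ranking by tags or by 1 repeat kept 5 or 6 of the 6 strongest members in each family.

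No paired analysis was possible because the inputs enter only through the authors' peak calls. Tags of 35 bp cannot separate near-identical copies, sites too weak for this depth are not listed, and binding was not linked to expression here.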
